A study of Mus musculus with 24 samples.

Results

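The genes described here are the transcriptional coactivator gene Ciita and 7 genes of the major histocompatibility complex (MHC) class II pathway, namely H2-Aa, H2-Ab1, H2-Eb1, H2-DMa, H2-DMb1, Cd74 and Ctss. They were taken by name as the 8 rows of the gene count table whose Ensembl identifier maps to these symbols, out of 53465 rows, and no measured value entered the choice. The counts come from 12 mouse tumours of 2153L, a transplanted mammary tumour of the triple-negative type with a p53 knockout that all groups share. Fresh fragments were placed in cleared mammary fat pads of female BALB/c hosts aged 6 to 8 weeks, an immune-competent strain, and treatment began at a tumour volume of about 100 mm3. Each tumour gave a library of total RNA, called input, and a library of RNA bound by J2, an antibody to double-stranded RNA, which makes 24 libraries in 8 groups of 3.

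The treatments were the combination (ORIN1001 at 150 mg/kg by mouth every day with docetaxel at 10 mg/kg into the peritoneum every week), docetaxel alone, ORIN1001 alone and vehicle. ORIN1001 blocks the ribonuclease activity of IRE1α, which responds when misfolded proteins build up in the endoplasmic reticulum, and docetaxel is a taxane that stabilises microtubules. Mice given a single drug also received vehicle in place of the other. The material is labelled as bulk tumour cells, so host stroma and immune cells are part of each library. Tumours of a group are given as biological replicates, and the labels do not say whether each came from its own host.

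Gene positions follow RefSeq on GRCm38.p6 (mm10). Ciita (ENSMUSG00000022504.9) lies on chromosome 16 from 10480014 to 10531064. H2-DMa (ENSMUSG00000037649.9; 34119693 to 34139101), H2-DMb1 (ENSMUSG00000079547.3; 34153191 to 34160229), H2-Ab1 (ENSMUSG00000073421.5; 34263227 to 34269418), H2-Aa (ENSMUSG00000036594.14; 34282744 to 34287823) and H2-Eb1 (ENSMUSG00000060586.10; 34305867 to 34316674) lie within 197 kb on chromosome 17. Cd74 (ENSMUSG00000024610.14) lies on chromosome 18 from 60803849 to 60812652, and Ctss (ENSMUSG00000038642.10) on chromosome 3 from 95526786 to 95556405. Counts are of whole genes, and the strand setting of the counting is not given in the sources used here. Reads shared with an overlapping gene are therefore uncertain for Ciita (Dexi and the lncRNA LOC115488669), H2-DMa (Brd2), Cd74 (Mir5107) and Ctss (Hmgb1-ps5), and H2-DMb1 has the near copy H2-DMb2. The mm10 genome is that of C57BL/6J, whose MHC haplotype differs from that of BALB/c, and the part of sequence mismatches in the counts of the polymorphic chain genes was not tested.

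MHC class II molecules carry peptides from the endosomal pathway to CD4+ T cells, and in most tissues they are made mainly by dendritic cells, macrophages and B cells, while other cells can make them after exposure to interferon gamma. Ciita does not itself bind DNA. It is recruited by the RFX, CREB and NF-Y factors that sit on the X and Y boxes of class II promoters, and it is required for transcription of the class II chain genes. Cd74, the invariant chain, holds the new dimer until proteases, cathepsin S (Ctss) among them, cut it down to a short peptide, which the H2-DM dimer then exchanges for antigen.

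Promoter sequence from RefSeq's table (GRCm38.p6) is described for 5 of the 8 genes, as 6 windows of 300 bases. A window runs from 250 bases before a start to 50 bases after it. That start is the first base of the gene on its strand, as given above, except for H2-DMa, whose windows lie inside its span. The promoter of Cd74 is not reported here, and no window was at hand for Ciita or H2-Ab1. The 150 bases before the start are printed for the 3 class II genes among these 5 whose windows held both box motifs and for Ctss, because they show the element through which Ciita is recruited and where a gene of the same pathway differs. Capitals mark letters of an X box (CTNGNAACT), a Y box (TGATTGG) or an interferon response element (GAAA, any 2 bases, GAAA), which were searched on both strands and did not overlap each other here. These letters were settled with the windows in view, so the matches describe the sequences and test nothing.
H2-Aa, chr17:34287824-34287973 (- strand): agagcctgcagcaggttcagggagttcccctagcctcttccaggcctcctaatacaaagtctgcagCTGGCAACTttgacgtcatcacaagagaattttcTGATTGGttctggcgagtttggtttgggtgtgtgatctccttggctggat
H2-Eb1, chr17:34305717-34305866 (+ strand): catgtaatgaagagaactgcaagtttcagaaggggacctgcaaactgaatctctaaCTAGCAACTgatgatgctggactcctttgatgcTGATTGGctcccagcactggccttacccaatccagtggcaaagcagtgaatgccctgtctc
H2-DMb1, chr17:34153041-34153190 (+ strand): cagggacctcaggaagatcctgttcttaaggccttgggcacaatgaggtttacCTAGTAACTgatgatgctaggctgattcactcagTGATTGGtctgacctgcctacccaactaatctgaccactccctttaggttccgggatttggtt
Ctss, chr3:95526636-95526785 (+ strand): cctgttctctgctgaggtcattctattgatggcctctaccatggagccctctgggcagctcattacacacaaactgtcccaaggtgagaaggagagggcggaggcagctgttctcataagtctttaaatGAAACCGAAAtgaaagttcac
The X letters of H2-Aa, H2-Eb1 and H2-DMb1 began 84, 94 and 97 bases before the start, and the Y letters 50, 61 and 63 bases before it. The step between them was 34 bases in H2-Aa and H2-DMb1 and 33 bases in H2-Eb1, although the intervening letters differed. Over all 32851 windows of that length, the X letters occurred in 4.10%, the Y letters in 7.82% and the interferon response letters in 3.44%. X letters followed within 40 bases by Y letters on the same strand occurred in 5 windows, or 0.0152%, which were those of H2-DMb1, H2-Aa, H2-Eb1, 1700048F04Rik and BC051142. The Ctss window held neither box but had the interferon response letters 21 bases before the start. The windows of H2-DMa, 34122582 to 34122881 and 34125268 to 34125567, held none of these letters. They lie inside the gene, which begins at 34119693, and sequence at other starts of H2-DMa was not searched. The windows of the related genes H2-Oa, H2-Ob, H2-DMb2 and H2-Eb2 held Y letters without these X letters.

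Input libraries held 11.9 to 15.7 M (mega) gene counts for the combination, 3.27 to 63.3 M for docetaxel, 25.4 to 45.0 M for ORIN1001 and 28.2 to 34.8 M for vehicle. The J2 libraries held 2.54 to 11.04 M, 6.69 to 18.7 M, 14.1 to 17.4 M and 12.3 to 14.9 M counts in that order of treatments. Docetaxel tumour 3 had an input unlike the rest: it was the shallowest (3.27 M), and ribosomal RNA loci took 67.9% of it, against 0.604% to 3.16% of the other 11 inputs. It held 9 counts for Ciita, 22 for H2-Aa, 42 for H2-Ab1 and 56 for Cd74, so results that rest on it are given with and without it. Ribosomal RNA loci also took 22.8% to 57.0% of the combination J2 libraries, against 1.26% to 15.7% of the other J2 libraries.

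Levels in input RNA are given as CPM, counts per M library counts after TMM scaling over the 12 inputs, for tumours 1, 2 and 3 of each treatment. They compare libraries for a gene, not genes with each other, since they are not set against gene length. All 8 genes had their highest mean level in the combination inputs. For all but Ctss every combination tumour lay above every tumour of vehicle and of ORIN1001. Over all genes this held for 22.0% against vehicle and for 25.4% against ORIN1001. Because the tumours were sequenced in bulk, more cells that express a gene and more of its RNA per cell cannot be told apart.

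Ciita stood at 43.1, 66.0 and 61.0 CPM in the combination inputs, against 15.6, 6.69 and 8.11 CPM in the vehicle inputs. It stood at 7.40, 9.72 and 11.3 CPM with docetaxel and at 9.95, 20.4 and 7.51 CPM with ORIN1001. The lowest combination tumour was above the highest tumour of all 3 other groups, which overlapped each other. The means were 56.7 ± 12.1 CPM for the combination, 9.46 ± 1.94 CPM for docetaxel, 12.6 ± 6.82 CPM for ORIN1001 and 10.1 ± 4.77 CPM for vehicle (SD, n = 3 each).

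The chains of the surface dimers followed the same order at the top. H2-Aa, which encodes the α chain of the I-A molecule, stood at 217, 195 and 295 CPM in the combination inputs, 61.6, 162 and 27.5 CPM with docetaxel, 32.1, 85.3 and 26.2 CPM with ORIN1001 and 124, 74.9 and 71.3 CPM with vehicle. H2-Ab1, which encodes its β chain, stood at 219, 212 and 317 CPM, 56.2, 145 and 52.5 CPM, 32.3, 79.3 and 26.9 CPM, and 124, 68.6 and 66.2 CPM in the same groups. Tumour 2 was the highest of its group for both chains with docetaxel and with ORIN1001, and tumour 1 with vehicle. H2-Eb1, the β chain of the I-E molecule, stood at 167, 180 and 231 CPM in the combination inputs, 36.6, 95.6 and 36.3 CPM with docetaxel, 19.4, 52.3 and 17.6 CPM with ORIN1001 and 88.9, 45.9 and 43.5 CPM with vehicle. Among the 3 chain genes the order of means below the combination was vehicle, docetaxel and ORIN1001 (for H2-Aa 47.9 ± 32.5 CPM with ORIN1001, 83.7 ± 69.9 CPM with docetaxel and 90.1 ± 29.5 CPM with vehicle, SD, n = 3 each), and neighbours in that order overlapped.

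Cd74 stood at 583, 510 and 707 CPM in the combination inputs, 156, 357 and 70.1 CPM with docetaxel, 104, 247 and 95.9 CPM with ORIN1001 and 308, 192 and 171 CPM with vehicle. H2-DMa, the α chain of the peptide exchanger, stood at 28.4, 26.6 and 34.9 CPM in the combination inputs, against 14.9, 11.8 and 9.51 CPM in the vehicle inputs. With docetaxel it stood at 10.7, 16.5 and 12.5 CPM and with ORIN1001 at 8.81, 17.9 and 9.79 CPM. The partner chain gene H2-DMb1 had 16.9, 9.48 and 18.04 CPM in the combination inputs and 8.55, 5.51 and 5.22 CPM in the vehicle inputs, and docetaxel tumour 2 with 9.57 CPM lay just above the lowest combination tumour. Ctss was the exception in its overlap. It stood at 170, 95.1 and 159 CPM in the combination inputs, 103, 175 and 20.02 CPM with docetaxel, 53.1, 108 and 93.6 CPM with ORIN1001 and 92.8, 103 and 67.8 CPM with vehicle.

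**Figure D1:**
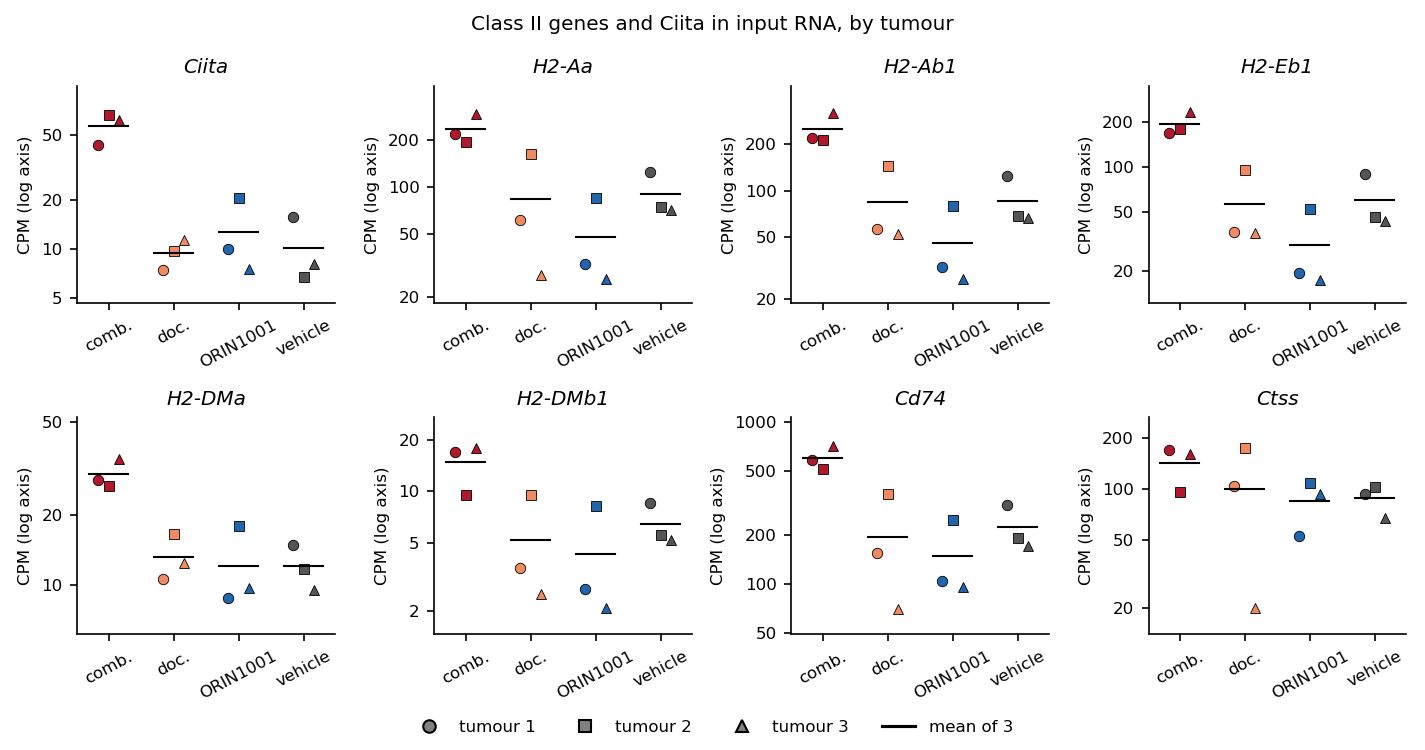
CPM on a log axis in the 12 input libraries, a panel per gene and a column per treatment (comb., combination; doc., docetaxel), with a point for each tumour and a line at the mean of 3. The combination tumours of Ciita sit between 43.1 and 66.0 CPM, above every other tumour, whereas those of Ctss overlap the other groups.

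The first comparison asked what the 2 drugs together changed against vehicle in input RNA. Fold changes are log2 values ± SE from edgeR's quasi-likelihood fit on all 12 inputs, with 3 tumours per treatment, and p-values are Benjamini-Hochberg adjusted over 17768 genes. Ciita rose by 2.49 ± 0.41 in combination inputs (edgeR adjusted p = 0.0312) and H2-DMa by 1.31 ± 0.30 (edgeR adjusted p = 0.0413). The other 6 genes were above 0 without passing, from H2-Eb1 at 1.69 ± 0.48 (edgeR adjusted p = 0.0599), H2-Ab1 at 1.53 ± 0.48 (0.0727), Cd74 at 1.42 ± 0.51 (0.105) and H2-Aa at 1.39 ± 0.56 (0.135) to H2-DMb1 at 1.21 ± 0.55 (0.177) and Ctss at 0.69 ± 0.51 (0.412). Thus 2 of 8 genes passed upward, where 2.80% of all genes tested did, and the median of the 8 was 1.40 against -0.03 over all genes. In 7 of the 8, all but Ctss, every combination tumour was above every vehicle tumour, which held for 22.0% of all genes.

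The size of these values barely depended on docetaxel tumour 3, but the calls did. Without that library 6 of 8 genes rose in the combination, where 14.6% of genes tested did so. H2-Eb1 was then at 1.71 ± 0.47 (edgeR adjusted p = 0.0251), Cd74 at 1.44 ± 0.40 (0.0271), H2-Ab1 at 1.55 ± 0.45 (0.0306) and H2-Aa at 1.40 ± 0.46 (0.0446), beside Ciita at 2.499 ± 0.40 (0.0078) and H2-DMa at 1.33 ± 0.29 (0.0139). With docetaxel tumour 3 kept, no gene of the 8 passed when vehicle tumour 2 or 3 or combination tumour 2 or 3 was left out, nor without TMM scaling, and 1 passed without vehicle tumour 1 or any ORIN1001 tumour. Few genes of any kind passed in these settings: 2 without vehicle tumour 2, 0 without vehicle tumour 3 or combination tumour 2 or 3, and 0 without TMM scaling. Without vehicle tumour 1 it was 27, and without an ORIN1001 tumour 47 to 75. With docetaxel tumour 3 and any vehicle, ORIN1001 or combination input left out, 2 to 7 of the 8 passed. Calls over all genes, in either direction, then ran from 2043 of 18289 (without combination tumour 2) to 5971 of 18445 (without combination tumour 1).

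**Figure D2:**
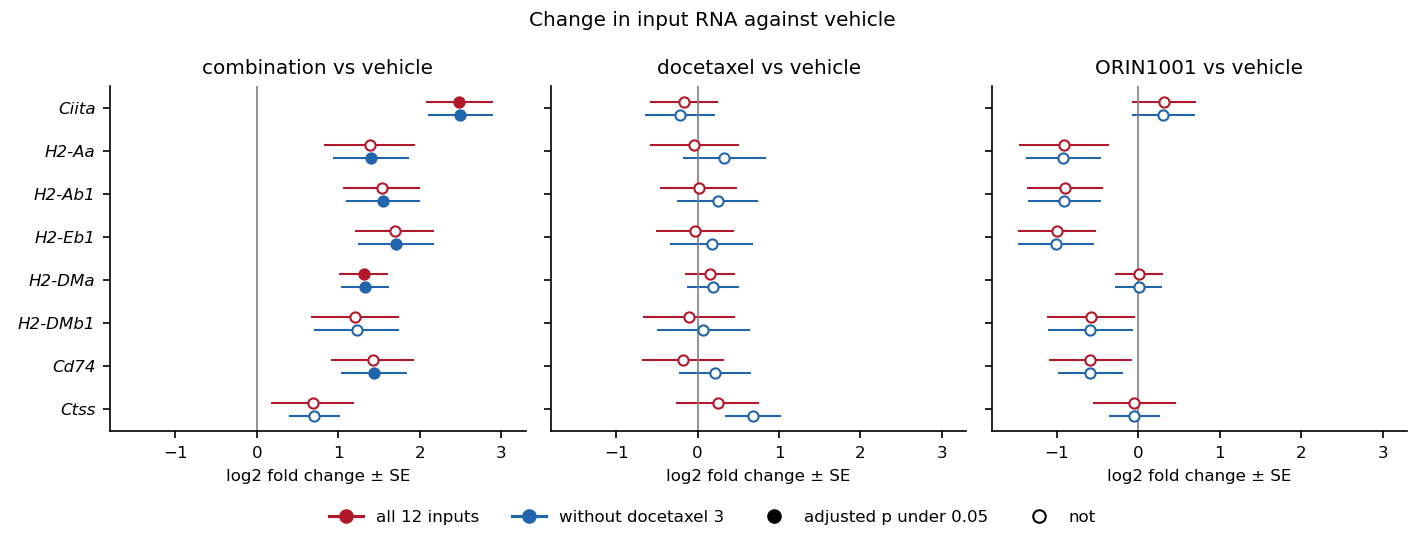
Log2 fold change ± SE of each gene in input RNA against vehicle for the combination, docetaxel and ORIN1001, from edgeR with all 12 inputs (red) and without docetaxel tumour 3 (blue), filled where the adjusted p is under 0.05. All 8 genes lie above 0 for the combination, with Ciita at 2.49 the furthest, and no point is filled for either drug alone.

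Set against ORIN1001 alone, the combination raised 6 of the 8 genes, where 7.20% of genes tested rose. H2-Eb1 was higher by 2.69 ± 0.50 (edgeR adjusted p = 0.0167), H2-Ab1 by 2.43 ± 0.49 (0.0191), H2-Aa by 2.30 ± 0.57 (0.0306), Ciita by 2.17 ± 0.41 (0.0167), Cd74 by 2.01 ± 0.52 (0.0336) and H2-DMa by 1.30 ± 0.30 (0.0251). H2-DMb1 at 1.79 ± 0.56 (edgeR adjusted p = 0.0552) and Ctss at 0.73 ± 0.51 (0.351) did not pass. The combination tumours lay above the ORIN1001 tumours for 7 genes, all but Ctss, against 25.4% of all genes. Without docetaxel tumour 3 the count was 7, where 18.5% of genes rose. It was 6 or 7 with a further vehicle, ORIN1001 or combination input left out. Calls over all genes, in either direction, then ran from 3627 of 18273 (without ORIN1001 tumour 3) to 6916 of 18445 (without combination tumour 1). With docetaxel tumour 3 kept, the count of the 8 was 0 without ORIN1001 tumour 3, combination tumour 2 or combination tumour 3. It was 3 without ORIN1001 tumour 1, and 0 without TMM scaling. Over all genes 0, 16, 84, 813 and 168 rose in these settings, in that order.

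Against docetaxel alone, Ciita was higher in the combination by 2.65 ± 0.44 (edgeR adjusted p = 0.0205) and H2-DMa by 1.16 ± 0.31 (0.0465), which made 2 of 8 where 5.46% of genes rose. H2-Eb1 at 1.72 ± 0.49 (edgeR adjusted p = 0.0554), H2-Ab1 at 1.52 ± 0.48 (0.0753), Cd74 at 1.60 ± 0.52 (0.0803) and H2-Aa at 1.43 ± 0.56 (0.140) did not pass. Nor did H2-DMb1 at 1.31 ± 0.57 (edgeR adjusted p = 0.183) and Ctss at 0.44 ± 0.51 (0.657). The tumours of the 2 treatments did not overlap for 6 genes, all but H2-DMb1 and Ctss, against 16.7% of all genes. Without docetaxel tumour 3, Ciita at 2.71 ± 0.47 and H2-DMa at 1.13 ± 0.33 passed, where 12.5% of genes rose, while Cd74 stood at 1.22 ± 0.46 and Ctss at 0.03 ± 0.35. No gene of the 8 passed when docetaxel tumour 1 or 2 or combination tumour 2 or 3 was left out, and 1 passed without combination tumour 1, ORIN1001 tumour 3 or any vehicle tumour. The count was 3 without ORIN1001 tumour 2. Over all genes 0 were called in the settings where none of the 8 passed, and 726 to 1070 rose in the others.

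Neither drug alone changed any of the 8 genes beyond the threshold. Docetaxel values were -0.17 ± 0.51 for Cd74, -0.16 ± 0.42 for Ciita, -0.11 ± 0.56 for H2-DMb1, -0.04 ± 0.55 for H2-Aa, -0.03 ± 0.48 for H2-Eb1, 0.01 ± 0.47 for H2-Ab1, 0.15 ± 0.31 for H2-DMa and 0.25 ± 0.51 for Ctss. When docetaxel tumour 3 was left out, 7 of the 8 were above 0 in place of 3, with Cd74 at 0.21 ± 0.44, H2-Aa at 0.33 ± 0.51 and Ctss at 0.68 ± 0.34 (edgeR adjusted p = 0.398), and none passed. Ctss then lay above every vehicle tumour in both remaining docetaxel tumours, which held for 15.7% of all genes. With all inputs edgeR called 0% of all genes, with 1857 of 17768 at an unadjusted p under 0.05 and 109 called by DESeq2, none of the 8 among them. For ORIN1001 the chain genes were at -1.001 ± 0.48 (H2-Eb1), -0.91 ± 0.55 (H2-Aa) and -0.90 ± 0.47 (H2-Ab1), Cd74 at -0.59 ± 0.51 and H2-DMb1 at -0.58 ± 0.54. Ciita at 0.31 ± 0.39, H2-DMa at 0.01 ± 0.30 and Ctss at -0.05 ± 0.51 lay nearer to 0. There edgeR again called 0% of genes, with 787 at an unadjusted p under 0.05, and DESeq2 called 31, none of the 8. The interaction, which sets the effect of the combination against the added effects of the single drugs, was 2.72 ± 0.69 for H2-Eb1 and 2.34 ± 0.58 for Ciita (edgeR adjusted p = 0.0958 for each), 2.42 ± 0.67 for H2-Ab1 (0.110), and for H2-Aa 2.34 ± 0.79 (0.160), Cd74 2.18 ± 0.72 (0.154) and H2-DMb1 1.89 ± 0.79 (0.237). For H2-DMa it was 1.15 ± 0.43 (edgeR adjusted p = 0.194) and for Ctss 0.49 ± 0.72 (0.780). It passed for 0% of genes, with 3134 at an unadjusted p under 0.05, and DESeq2 called 771 genes, 5 of the 8 among them. Without docetaxel tumour 3 it passed for Ciita (2.40 ± 0.59, edgeR adjusted p = 0.0405) and for 5.04% of all genes upward.

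The other genes of the pathway were counted over lists chosen with earlier results of these data known. Of 7 genes for the RFX, CREB and NF-Y factors of the promoter complex, 0 passed in combination against vehicle, and their median was -0.08. The smallest p among them belonged to Rfxank, an RFX subunit, at -0.68 ± 0.30 (edgeR adjusted p = 0.168), which passed downward with Nfyc, an NF-Y subunit, without docetaxel tumour 3 (-0.66 ± 0.17, 0.0220, and -0.51 ± 0.14, 0.0278). Of 4 tested genes for further class II chains, 0 passed, with a median of 1.46. Among them H2-Ea, the α chain partner of H2-Eb1, which C57BL/6 carries as a pseudogene and BALB/c expresses, stood at 136, 133 and 183 CPM in the combination inputs, against 67.3, 37.5 and 37.9 CPM in the vehicle inputs. Its change was 1.66 ± 0.51 (edgeR adjusted p = 0.0709), and it passed without docetaxel tumour 3 (1.68 ± 0.49, 0.0310), as did H2-Ob, a chain of the H2-DM inhibitor (1.94 ± 0.66, 0.0493). Against ORIN1001 both passed with all inputs, H2-Ea at 2.53 ± 0.53 (edgeR adjusted p = 0.0197) and H2-Ob at 2.45 ± 0.69 (0.0410), where 7.20% of genes tested rose. Against vehicle without docetaxel tumour 3, 14.6% of all 18475 genes tested rose and 2483 genes fell.

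Of 7 genes of class II turnover and processing, 0 passed against vehicle. Marchf1, the ubiquitin ligase that takes class II from the surface, was at 1.08 ± 0.30 (edgeR adjusted p = 0.0559), and the protease gene Ctsl at -0.81 ± 0.30 (0.112). When docetaxel tumour 3 was left out Marchf1 rose (1.10 ± 0.26, edgeR adjusted p = 0.0166) and Ctsl fell by 0.80 ± 0.23 (0.0309). In the interferon gamma axis 2 of 8 tested genes rose against vehicle, Irf1 among them, where 2.80% of all genes tested rose. Irf1, a transcription factor induced by interferon gamma, was higher by 0.91 ± 0.22 (edgeR adjusted p = 0.0453). Ifng itself failed the filter on low counts, with 0.732, 0.349 and 0.0526 CPM in the combination inputs and 0.157, 0 and 0.0596 CPM in the vehicle inputs. Of 9 class I genes 2 rose, the peptide transporter gene Tap1 by 1.64 ± 0.38 (edgeR adjusted p = 0.0425) and Nlrc5, the class I counterpart of Ciita, by 2.22 ± 0.55 (0.0465). The share over all genes was again 2.80%. With docetaxel tumour 3 left out, 3 genes of the interferon gamma axis rose and 2 fell, out of 9 tested, and 5 of 9 class I genes rose. Over all 18475 genes tested there, 14.6% rose and 2483 genes fell.

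Summed markers of dendritic cells and of macrophages and monocytes were higher in the combination inputs than in the other groups, but single markers differed and B cell markers stayed low. The summed level of 9 dendritic cell markers ran from 92.8 to 102 CPM in the combination inputs, 17.5 to 63.8 CPM with docetaxel, 25.2 to 37.2 CPM with ORIN1001 and 40.5 to 51.0 CPM with vehicle, with no overlap between the combination and any other group. Clec9a, a receptor of cross-presenting dendritic cells, rose by 3.25 ± 0.78 against vehicle (edgeR adjusted p = 0.0447) and the integrin gene Itgax by 1.22 ± 0.32 (0.0497), which made 2 of 8 tested. Among all genes tested 2.80% rose. Itgax made up most of the sum, at 73.3, 65.0 and 76.8 CPM in combination tumours 1, 2 and 3. Zbtb46, at 7.50, 10.0 and 8.79 CPM, overlapped the vehicle inputs (7.11, 8.74 and 7.48 CPM), as did Xcr1. The sum of 8 macrophage and monocyte markers ran from 381 to 478 CPM in the combination inputs, 173 to 353 CPM with docetaxel, 172 to 377 CPM with ORIN1001 and 221 to 304 CPM with vehicle. Among them Cd68 went the other way, at 13.4, 4.95 and 12.1 CPM in the combination inputs against 19.1, 27.5 and 13.9 CPM in the vehicle inputs. For 6 T cell markers the sum ran from 15.6 to 27.7 CPM, 3.75 to 5.40 CPM, 2.13 to 8.72 CPM and 6.27 to 8.02 CPM in these groups. None of the 6 passed against vehicle with all inputs, and Cd3e and Cd8a passed without docetaxel tumour 3, where 14.6% of all genes rose. The sum of 7 B cell markers reached 1.05 CPM at most in the combination inputs, with Cr2 at 0 in all 3, and 0.840 CPM at most in the vehicle inputs, with Cr2 at 0. Of 4 tested neutrophil markers 2 passed: S100a8 fell by 3.53 ± 0.73 (edgeR adjusted p = 0.0348) and S100a9 fell by 3.00 ± 0.67 (0.0388). Among all 17768 genes tested, 351 fell. Of 6 epithelial markers 0 passed. The part of these cell types in the levels of the 8 genes was not tested.

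**Figure D3:**
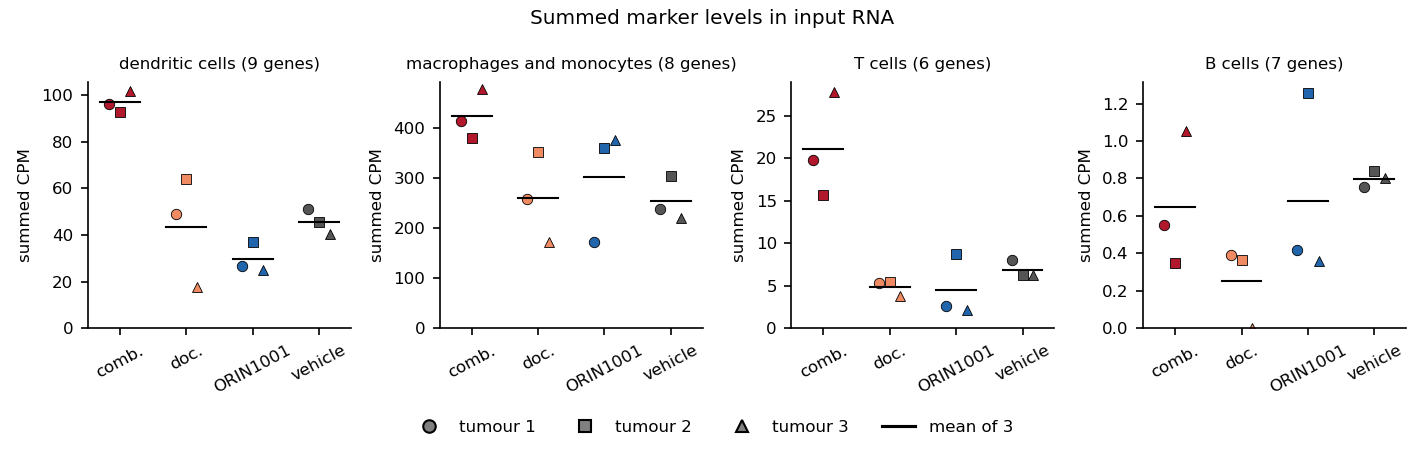
Summed CPM of marker genes of 4 cell types in the 12 input libraries, with a point for each tumour and a line at the mean of 3, on linear axes that start at 0. The combination tumours stand highest for dendritic cell (92.8 to 102 CPM) and T cell markers (15.6 to 27.7 CPM), and B cell markers stay under 1.3 CPM in every tumour.

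Across tumours the chain genes and Cd74 varied almost as one. Over the 12 inputs, Pearson's r of log2 CPM among H2-Aa, H2-Ab1, H2-Eb1 and Cd74 ran from 0.942 to 0.998, and from 0.989 to 0.998 without docetaxel tumour 3. Ciita followed them less closely, with r from 0.745 to 0.837, and Ctss least, with r from 0.554 to 0.775. These values describe libraries that share a treatment within groups of 3 and are given without a test. Outside the 8 genes, the 10 genes most like their mean log2 CPM over the 12 inputs, of 13901 genes at an average of at least 1 CPM, were H2-Ea (r = 0.978), Ms4a4c, Clec7a, Tgfbi, Scimp, Moxd1, Itgax, Rgs2, Cd40 and Hgf (r = 0.934). Without docetaxel tumour 3, H2-Ea (r = 0.991), Ms4a4c, Clec7a, Scimp and Tgfbi were again among the first 10.

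Within a library, counts of the partner chains can be set against each other without any scaling between libraries. The size of such a ratio depends on transcript length, so only its differences between libraries are read. H2-Aa counts per H2-Ab1 count were 0.990, 0.920 and 0.930 in the combination inputs and 1.00, 1.09 and 1.08 in the vehicle inputs, and every input but docetaxel tumour 3 (0.524, from 22 and 42 counts) lay between 0.920 and 1.11. Ciita counts per 100 Cd74 counts were 7.39, 12.9 and 8.63 in the combination inputs, 4.74, 2.72 and 16.1 with docetaxel, where the last rests on 9 Ciita counts, 9.57, 8.24 and 7.83 with ORIN1001 and 5.05, 3.48 and 4.75 with vehicle. Both groups that received ORIN1001 thus lay above every vehicle tumour in this ratio. The ratios were examined after the levels had been seen and were not tested, and 3 tumours against 3 cannot give an exact two-sided permutation p under 0.1.

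**Figure D4:**
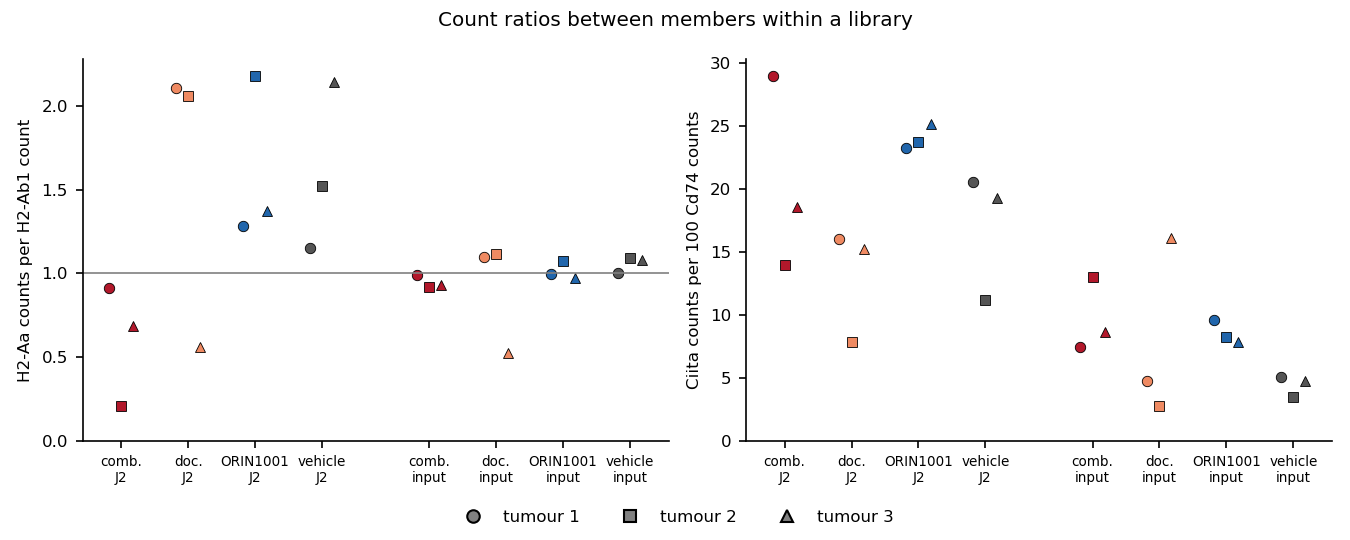
Counts of H2-Aa per H2-Ab1 count (left) and of Ciita per 100 Cd74 counts (right) in each of the 24 libraries, J2 libraries on the left of each panel and inputs on the right, with a point for each tumour. H2-Aa per H2-Ab1 lies near 1 in all inputs but docetaxel tumour 3, and ranges from 0.205 to 2.18 in the J2 libraries.

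The second question was how the scaled level of each RNA in J2 libraries compared with input, which does not give the share bound. For this, all 24 libraries were scaled together and fitted with the tumour as a block, over 17338 genes, and a value below 0 means a lower scaled level in the J2 library than in the input of the same tumour. Ciita and the other 7 genes stood on different sides. Averaged over treatments, 7 of 8 genes were lower in J2 than in input RNA, where 30.0% of all genes tested were lower. The values ran from H2-DMb1 at -1.71 ± 0.23 (edgeR adjusted p = 2.58e-05), H2-Ab1 at -1.28 ± 0.17 (2.72e-05) and Ctss at -1.27 ± 0.21 (0.000141) through Cd74 at -1.17 ± 0.14 (8.21e-06) and H2-Aa at -1.04 ± 0.10 (1.55e-06) to H2-Eb1 at -0.81 ± 0.11 (2.8e-05) and H2-DMa at -0.55 ± 0.11 (0.000812). Ciita was at 0.24 ± 0.10 (edgeR adjusted p = 0.0572), and without docetaxel tumour 3 it was higher in J2 (0.28 ± 0.09, edgeR adjusted p = 0.0125), where 29.7% of all genes were higher. The median of the 8 was -1.11, against -0.05 over all genes. Without TMM scaling the all-gene median moved to -0.32 and Ciita to -0.03.

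In single tumours the log2 ratio of J2 to input was below 0 in 12 of 12 for H2-Aa and Cd74, which held for 4.15% of all genes, in 11 of 12 for H2-Ab1, H2-Eb1 and H2-DMa, and in 10 of 12 for H2-DMb1 and Ctss. For Ciita it was below 0 in 2 of 12, combination tumour 2 (-0.12) and docetaxel tumour 3 (-0.16), and its highest value was 0.87 in ORIN1001 tumour 3. In all 3 vehicle tumours the ratio was below 0 for every gene but Ciita, against 39.8% of all genes. In vehicle tumours 7 of 8 genes were lower in J2 RNA, from -0.88 ± 0.22 for H2-DMa to -2.29 ± 0.45 for H2-DMb1, where 21.1% of genes tested were lower, and Ciita was at 0.16 ± 0.20 (edgeR adjusted p = 0.542). In ORIN1001 tumours 4 were lower (H2-DMb1, H2-Ab1, H2-Eb1 and Cd74), against 14.9% of genes, and in docetaxel tumours 6, all but Ciita and H2-DMa, against 12.0%. In combination tumours 3 were lower, H2-Aa at -1.44 ± 0.20 (edgeR adjusted p = 0.000193), H2-DMb1 at -1.38 ± 0.46 (0.0293) and Cd74 at -0.88 ± 0.27 (0.0212), against 20.5%. H2-Ab1 at -0.54 ± 0.34 (edgeR adjusted p = 0.233), H2-Eb1 at -0.44 ± 0.22 (0.124), H2-DMa at -0.44 ± 0.23 (0.145) and Ctss at -0.82 ± 0.42 (0.135) did not pass there. These counts rest on few libraries. For ORIN1001, 1 was lower without its tumour 3 (1088 over all genes). Without its tumour 2, 0 were lower and 1 was higher (972 and 1136 over all genes). Without docetaxel tumour 3, 7 passed (6 lower, against 19.6% of genes, and Ciita higher, against 20.5%). For docetaxel 0 were lower without its tumour 1 or 2 (571 and 356 over all genes), 3 without vehicle tumour 1 or 2 (1704 and 1738), and 7 without docetaxel tumour 3 (20.9% of genes). For the combination 1 was lower without its tumour 1 or 3 (2709 and 1637 over all genes), and 4 without docetaxel tumour 3 (24.7% of genes), Ctss at -0.79 ± 0.25 being the fourth.

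**Figure D5:**
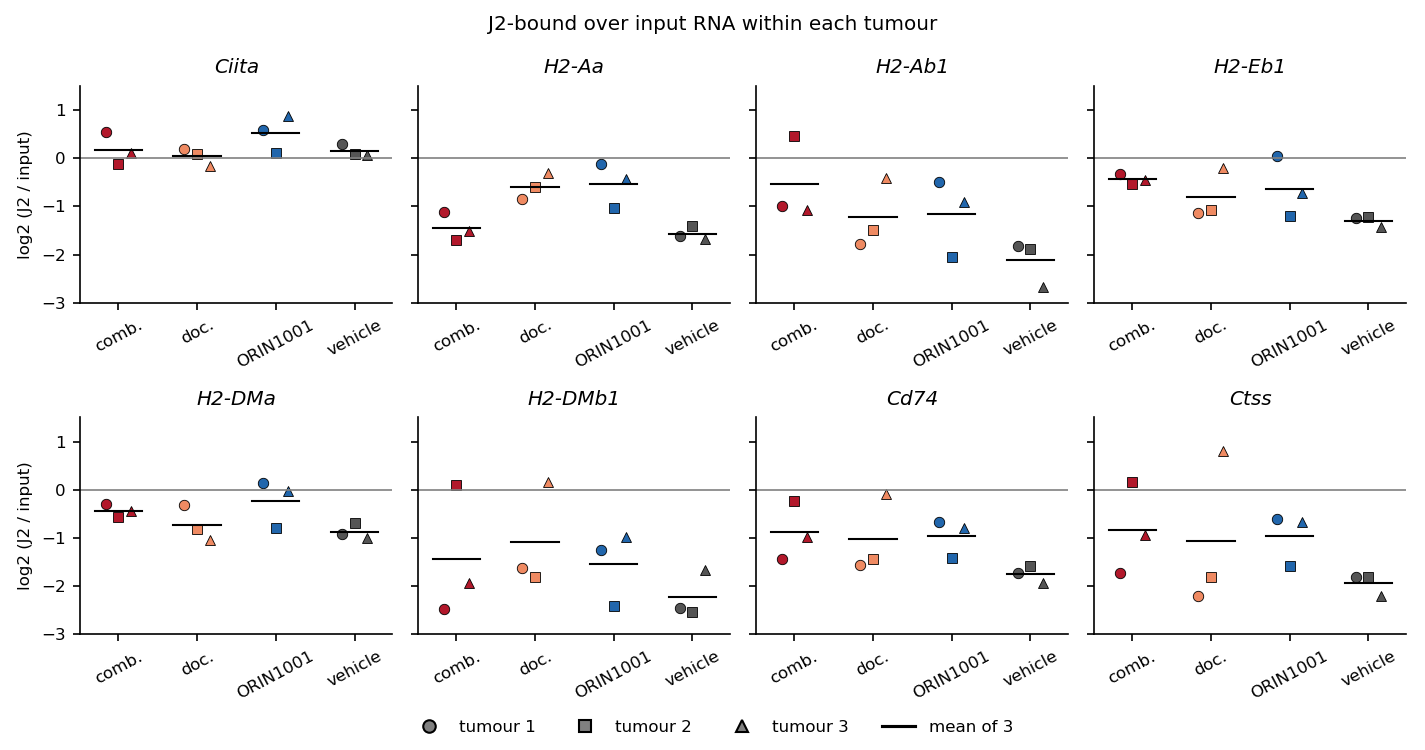
Log2 ratio of scaled J2 to scaled input level within each tumour, a panel per gene and a column per treatment (comb., combination; doc., docetaxel), with a point for each tumour and a line at the mean of 3. The 3 vehicle tumours of every gene but Ciita lie below 0, and combination tumour 2 and docetaxel tumour 3 stand above their groups for H2-Ab1, H2-DMb1, Cd74 and Ctss.

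The change of this J2 enrichment in the combination against vehicle differed between the genes. H2-Ab1 had log2 ratios of -0.99, 0.46 and -1.07 in the combination tumours and -1.82, -1.88 and -2.67 in the vehicle tumours, and its enrichment was higher by 1.58 ± 0.48 (edgeR adjusted p = 0.0242). H2-Eb1 had ratios of -0.34, -0.52 and -0.46 in the combination tumours and -1.25, -1.22 and -1.43 in the vehicle tumours, a difference of 0.86 ± 0.31 (edgeR adjusted p = 0.0462). For H2-Aa the ratios were -1.11, -1.70 and -1.51 in the combination tumours and -1.62, -1.40 and -1.68 in the vehicle tumours, which overlapped, and the difference was 0.13 ± 0.27 (edgeR adjusted p = 0.753). Ciita differed by 0.02 ± 0.28 (edgeR adjusted p = 0.976). Cd74 at 0.87 ± 0.38 (edgeR adjusted p = 0.10), Ctss at 1.12 ± 0.58 (0.156), H2-DMb1 at 0.91 ± 0.64 (0.302) and H2-DMa at 0.44 ± 0.32 (0.314) did not pass. Thus 2 of 8 genes rose, where 12.7% of all genes did, and for 5 (H2-Ab1, H2-Eb1, H2-DMa, Cd74 and Ctss) the combination tumours lay above the vehicle tumours, against 23.6% of all genes. Without docetaxel tumour 3, Cd74 (0.83 ± 0.27, edgeR adjusted p = 0.0206) and Ctss (1.09 ± 0.35, 0.0197) passed as well, which made 4 of 8 against 18.6%. Without combination tumour 2 or vehicle tumour 3, and without TMM scaling, where the median of all genes moved to -0.69, 0 of the 8 passed (1321, 1317 and 74 higher over all genes). Leaving out combination tumour 1 or 3, vehicle tumour 1 or 2, or ORIN1001 tumour 3 left 1. The combination J2 libraries 1 and 2 held 187 and 600 counts of H2-Ab1.

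With either drug alone the J2 enrichment of the 8 genes did not pass against vehicle. ORIN1001 gave differences from 0.37 ± 0.27 for Ciita to 1.04 ± 0.27 for H2-Aa, whose ratios were -0.13, -1.03 and -0.42 with ORIN1001. Between them lay H2-DMb1 at 0.64 ± 0.64, H2-DMa at 0.65 ± 0.31, H2-Eb1 at 0.66 ± 0.31, Cd74 at 0.78 ± 0.38, H2-Ab1 at 0.96 ± 0.48 and Ctss at 0.98 ± 0.56. Docetaxel gave differences from -0.07 ± 0.29 for Ciita to 0.94 ± 0.28 for H2-Aa, with ratios of -0.85, -0.61 and -0.31. The others were H2-DMa at 0.20 ± 0.33, H2-Eb1 at 0.43 ± 0.31, Ctss at 0.59 ± 0.59, Cd74 at 0.67 ± 0.39, H2-DMb1 at 0.79 ± 0.65 and H2-Ab1 at 0.82 ± 0.49. The median of the 8 without docetaxel tumour 3 was 0.21 in place of 0.63, with Ctss at -0.13 ± 0.38, Cd74 at 0.20 ± 0.30, H2-Ab1 at 0.41 ± 0.43 and H2-Aa at 0.78 ± 0.27, and none passed. With all tumours, of the 8 genes, 4 did not overlap with vehicle in each case: H2-Aa, H2-Eb1, Cd74 and Ctss with ORIN1001, against 8.86% of all genes, and H2-Aa, H2-Ab1, H2-Eb1 and Cd74 with docetaxel, against 10.1%. In both comparisons edgeR called 0% of genes, with 605 and 729 at an unadjusted p under 0.05 for ORIN1001 and docetaxel, and DESeq2 called 0 and 6, none of the 8.

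The partner chains of I-A, whose counts ran side by side in input RNA, did not do so in J2 RNA. H2-Aa counts per H2-Ab1 count were 0.914, 0.205 and 0.684 in the combination J2 libraries, 2.11, 2.06 and 0.560 with docetaxel, 1.28, 2.18 and 1.37 with ORIN1001 and 1.15, 1.53 and 2.15 with vehicle. The 3 combination libraries were below every J2 library of ORIN1001 and vehicle, and docetaxel tumour 3 was the other library below 1. In scaled J2 levels, H2-Ab1 stood at 99.4, 263 and 134 CPM in the combination, against 31.9, 17.7 and 9.37 CPM in vehicle, and H2-Aa at 90.9, 53.9 and 91.4 CPM, against 36.7, 27.0 and 20.1 CPM. Ciita had 56.3, 54.8 and 58.4 CPM in the combination J2 libraries, 8.17, 9.86 and 9.33 CPM with docetaxel, 13.9, 20.5 and 13.2 CPM with ORIN1001 and 17.3, 6.81 and 7.77 CPM with vehicle. The share of ribosomal RNA, given above, was also higher in the combination J2 libraries than in all other J2 libraries. In combination tumours 1, 2 and 3 it was 38.0%, 57.0% and 22.8%, and its part in these values was not tested.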

How the data were processed

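RNA-seq gene counts from 12 tumours, each with an input and a J2 library, were analysed. The deposited values are whole-number counts per gene, and the submitters' processing notes name the build mm10 and the tools featureCounts 2.0.3, STAR 2.7.3a and fastp 0.23.2. Per the labels, library preparation used Ribo-Zero depletion and kept strand. The strand setting and the treatment of reads with several alignments were not given in the sources used here. Ensembl identifiers gave a symbol for 53274 of the 53465 rows, with the exact version for 50604. The second deposited table, of repeat counts, was not used here. Replicates of a group differed beyond sampling noise (smallest chi-square per degree of freedom 11.5), so none was taken for a library deposited again, which does not show that they came from separate hosts.

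Counts were fitted with edgeR 4.0.16 in R 4.3.3: TMM scaling, filterByExpr (minimum count 10, minimum total 15), the quasi-likelihood F test, two-sided, with Benjamini-Hochberg adjustment over all genes tested and a threshold of 0.05. The SE of a log2 fold change is its size divided by the square root of F. The 12 inputs were fitted together, with a coefficient per treatment. J2 against input used the 24 libraries and a term per tumour, since the design text pairs inputs with J2 libraries. Around their group means, a tumour's J2 and input libraries correlated at 0.0912 to 0.72, above 0.1 in 10 of 12. Ratios per tumour and correlations use log2 CPM with a prior count of 2. All 8 genes passed the filter in both fits. The fitting was tested on simulated counts first. CPM per tumour are limited by counting error as well as by the spread of 3 tumours.

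The members and gene lists, the design and the first alternatives were chosen with earlier results of these data known. All 8 genes are named in every comparison of treatments, up to 4 genes per list by their p in combination against vehicle, and the 10 genes of highest correlation with the mean of the 8. Some further list genes, such as Zbtb46 and Cd68, are named for their levels. The alternatives were DESeq2 1.42.0, no TMM, library sizes without ribosomal RNA loci, no low-count filter, the replicate number as a block (no block for J2), fits on the compared groups alone and each tumour left out in turn. Leaving out docetaxel tumour 3 together with another input was added after seeing the data. Some genes of the lists are not reported here.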

Additional observations from a re-analysis of the deposited data

Results flagged for a closer look

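Of the tests of whether J2 enrichment differed from that in vehicle tumours, 2 passed for these genes, both with the combination, where 12.7% of all genes were higher. H2-Ab1 was higher by 1.58 in combination than in vehicle tumours on the log2 scale, and H2-Eb1 by 0.86. Combination tumour 2, whose J2 library had 57.0% of its counts at ribosomal RNA loci, gave the highest H2-Ab1 ratio (0.46), and without it neither passed.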

How the results depend on the processing

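Depth limits H2-DMb1 most, with 5 counts in the shallowest J2 library and 2 in the input of docetaxel tumour 3, where Ciita had 9 and H2-DMa 10. With 3 tumours a treatment, single libraries decide many calls. The causes of the changes below were not tested.

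In numbers of the 8 genes that passed, combination against vehicle in input RNA (2) gave 5 with DESeq2, 7 when only the groups compared were fitted, 0 without TMM and 0 with the replicate number as a block, and from 0 to 6 when each tumour was left out in turn. Combination against docetaxel (2) gave 5 with DESeq2, 1 without TMM, 0 with only the groups compared and 0 with the replicate block, and 0 to 3 with a tumour left out. Combination against ORIN1001 (6) gave 0 without TMM, 0 to 7 with a tumour left out, and 6 with the block. The interaction (0) gave 5 with DESeq2 and 0 to 1 with a tumour left out. A further alternative, chosen after seeing the data, left out docetaxel tumour 3 and a vehicle, ORIN1001 or combination input. Combination against vehicle, docetaxel and ORIN1001 then gave 2 to 7, 1 to 5 and 6 to 7. Over all genes 2043 to 5971, 2859 to 5277 and 3627 to 6916 were called, in that order. The replicate numbers are not stated to pair inputs of different treatments, and same-numbered inputs had correlations of -0.209 to 0.0929, none of 18 above 0.1. This cannot exclude a pairing, since input and J2 libraries of the same tumour went as low as 0.0912.

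For J2 against input, ORIN1001 (4) gave 0 without TMM, 1 with no replicate block and 1 to 7 with a tumour left out (calls in either direction). Docetaxel (6) gave 0, 1 and 0 to 7 in the same settings. Over all 17338 genes, 589 were lower without TMM and 1412 with no block for ORIN1001, and 155 and 1097 for docetaxel. The combination (3) gave 7 without TMM, 5 with no low-count filter, 0 with no block and 1 to 4 with a tumour left out. Over all genes, 6452 of 17338 were lower for it without TMM, 4105 of 33354 with no low-count filter and 2378 of 17338 with no block, against 3550 of 17338 in the main fit. J2 enrichment in the combination (2) gave 0 without TMM, 0 with no block and 0 to 4 with a tumour left out. The mean over treatments kept 7 to 8 and vehicle 6 to 7 with a tumour left out.

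Over all genes, combination against vehicle had 848 calls (497 higher), against 2489 with DESeq2, 0 without TMM, 40 (20 higher) with the block and 3124 with only the groups compared. Combination against docetaxel had 1320 (971 higher), against 1188 (1164 higher) without TMM, 2246 with DESeq2 and 0 with the block or only the groups compared. Combination against ORIN1001 had 2244 (1279 higher), against 204 (168 higher) without TMM, 717 with the block, 3460 with DESeq2 and 5498 with only the groups compared. With a tumour left out, the calls over all genes ran from 0 to 5181 against vehicle, 0 to 4397 against docetaxel and 0 to 6507 against ORIN1001. For J2 against input without TMM, 1442 of 6499 calls were higher for the mean (4334 of 9539 with TMM), 900 of 1055 for docetaxel (2074 of 4146) and 252 of 6704 for the combination (2825 of 6375). The enrichment in the combination had 74 of 2604 higher (2208 of 5178). Without TMM the median of all genes moved to -0.40 for docetaxel against vehicle, 0.45 for combination against docetaxel and for the interaction, -0.32, -0.26, -0.31, 0.39 and -1.07 for J2 against input (mean, vehicle, ORIN1001, docetaxel and combination), and 0.69 and -0.69 for the enrichment with docetaxel and the combination.

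Values that changed sign all belonged to differences that did not pass. Without TMM, H2-Ab1 moved to -0.26 and H2-DMa to -0.23 for docetaxel against vehicle. Ciita moved to -0.027, -0.10 and -0.77 for J2 against input (mean, vehicle and combination) and to 0.58 and -0.67 for the enrichment with docetaxel and the combination, where H2-Aa moved to -0.56 and H2-DMa to -0.25. With the replicate block, H2-Ab1 moved to -0.16 for docetaxel and H2-DMa to -0.040 for ORIN1001 against vehicle. The Ciita enrichment in the combination was -0.030 with DESeq2, -0.018 without ribosomal RNA loci, -0.039 with no low-count filter and -0.039 with no replicate block. With a tumour left out, values that crossed 0 ran from -0.39 to 0.28 for Ciita, -0.92 to 0.33 for H2-Aa, -0.66 to 0.36 for H2-Ab1, -0.71 to 0.37 for H2-Eb1, -0.11 to 0.33 for H2-DMa, -0.95 to 0.22 for H2-DMb1, -0.95 to 0.21 for Cd74 and -0.38 to 0.68 for Ctss for docetaxel against vehicle. For ORIN1001 against vehicle they ran from -0.21 to 0.77 for Ciita, -0.37 to 0.20 for H2-DMa and -0.26 to 0.20 for Ctss. For J2 against input they ran from -0.42 to 0.083 for H2-DMa with ORIN1001 and from -0.017 to 0.14 for Ciita with docetaxel. For the enrichment they ran from -0.074 to 0.27 for H2-DMa and -0.13 to 1.06 for Ctss with docetaxel and from -0.17 to 0.14 for Ciita and -0.051 to 0.24 for H2-Aa with the combination.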
